A study of Mus musculus with 56 samples.

Results

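The 28 genes described here encode the proteins that make, move, sense and mark GABA, the main inhibitory transmitter of the brain. They were taken as a named list: 5 genes of GABA synthesis, transport and breakdown, 10 subunits of the GABA-A receptor, 2 subunits of the GABA-B receptor, 2 proteins of the inhibitory postsynapse, 7 neuropeptides and calcium-binding proteins that mark interneuron classes, and 2 transcription factors of interneurons. All 28 were among the 15777 genes of the deposited brain table. The study measured polyadenylated RNA by sequencing in cortex, hippocampus and cerebellum. Wild-type mice (WT) were compared with mice labelled Fmr1 KO (knockout), with 3 libraries per region and genotype, 18 in all. Fmr1 encodes FMRP, the RNA-binding protein lost in fragile X syndrome. The labels used here give only tissue, genotype and replicate number for these libraries. They name no strain, age, sex or knockout allele, and do not say whether the libraries came from separate animals or whether 1 animal gave all 3 regions. The p-values therefore measure the spread between these libraries, which may be technical in part.

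GABA is made from glutamate by the 2 glutamate decarboxylases, loaded into vesicles by the transporter Slc32a1, taken up again by transporters of the Slc6 family and degraded by Abat. It opens the chloride channel of GABA-A receptors, pentamers whose alpha, beta, gamma and delta subunits set where the receptor sits and its kinetics, and it acts more slowly through the G protein-coupled GABA-B receptor, an obligate pair of Gabbr1 and Gabbr2. Lower GABA-A receptor mRNA has been reported in fragile X models, which is the question that the KO comparison addresses.

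Total counts ran from 26264368 to 41384652 per library. Fmr1 had 72.7 to 79.0 TPM (the authors' length-normalized level) in WT cortex and 17.1 to 21.3 in KO cortex, 52.0 to 57.5 against 14.43 to 14.97 in hippocampus, and 65.0 to 79.3 against 19.2 to 20.6 in cerebellum, so that every KO library lay below every WT library of its region. Summed TPM of 8 cortex markers was 488 to 773 in the cortex libraries and at most 206 in the other regions, and that of 8 cerebellum markers was at least 5566 in cerebellum and at most 81.1 elsewhere. Barhl1, a cerebellar granule cell marker, was at 0 in all 6 cortex libraries. The cortex libraries differed from each other in striatal markers (8 genes such as Drd1 and Drd2, none at 0), whose summed TPM was 353, 597 and 1150 in WT 1 to 3 and 1560, 866 and 833 in KO 1 to 3. Their cortex marker sum was 772, 773 and 625 in WT and 488, 511 and 652 in KO, and their excitatory neuron sum (6 genes) was 5517, 5619 and 4331 in WT and 3665, 3833 and 4375 in KO. The cortex sum of endothelium and blood markers (5 genes) was 1286 to 1469 in WT and 1058.5 to 1096 in KO. In hippocampus the choroid plexus sum (7 genes) ran from 36.1 to 11750 and was lowest in WT 1 and KO 2, and the oligodendrocyte sum (7 genes) was 6460 to 6865 in WT and 5206 to 5458 in KO, with 3 of the 7 called lower in KO (edgeR). The hippocampal thalamus sum (6 genes) was 59.4 to 66.0 in WT and 48.9 to 54.5 in KO. The excitatory neuron sum there went the other way, at 5093 to 5275 in WT and 5332 to 6023 in KO. In cerebellum the choroid plexus sum was 2469 to 3665 in WT and 998 to 2675 in KO, and all 7 genes were lower in KO with an unadjusted p under 0.05 while none passed the adjusted test. The part of these differences in the genotype values of the 28 genes, and in their average over regions, was not tested. In tissue RNA, fewer cells of a type and less RNA per cell cannot be told apart.

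The genes that differed most between regions were the interneuron markers and the receptor subunits, while the GABA-B receptor pair and Nlgn2 had closely similar levels throughout. Between WT cortex and WT hippocampus 17 of the 28 genes differed at an adjusted p under 0.05 (edgeR quasi-likelihood test, Benjamini-Hochberg adjustment over all genes), against 43.4% of all 15239 genes tested. Of these 12 were higher in cortex (22% of all genes) and 5 lower (21.3%). Cortex and cerebellum differed in 23 of the 28, against 67.9% of all genes, with 14 higher in cortex (33.4% of all) and 9 lower (34.6%). Hippocampus and cerebellum also differed in 23, against 68% of all genes, with 13 higher in hippocampus (33.4% of all) and 10 lower (34.6%). The median absolute log2 difference of the 28 was 0.48, 1.79 and 1.74 in these comparisons, where it was 0.25, 0.47 and 0.46 over all genes. The call was made in all 3 comparisons for 15 genes, in 2 for 8, in 1 for 2 and in none for Gabbr1, Gabbr2 and Nlgn2. By mean TPM 13 of the genes were highest in WT cerebellum, 10 in cortex and 5 in hippocampus.

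**Figure D1:**
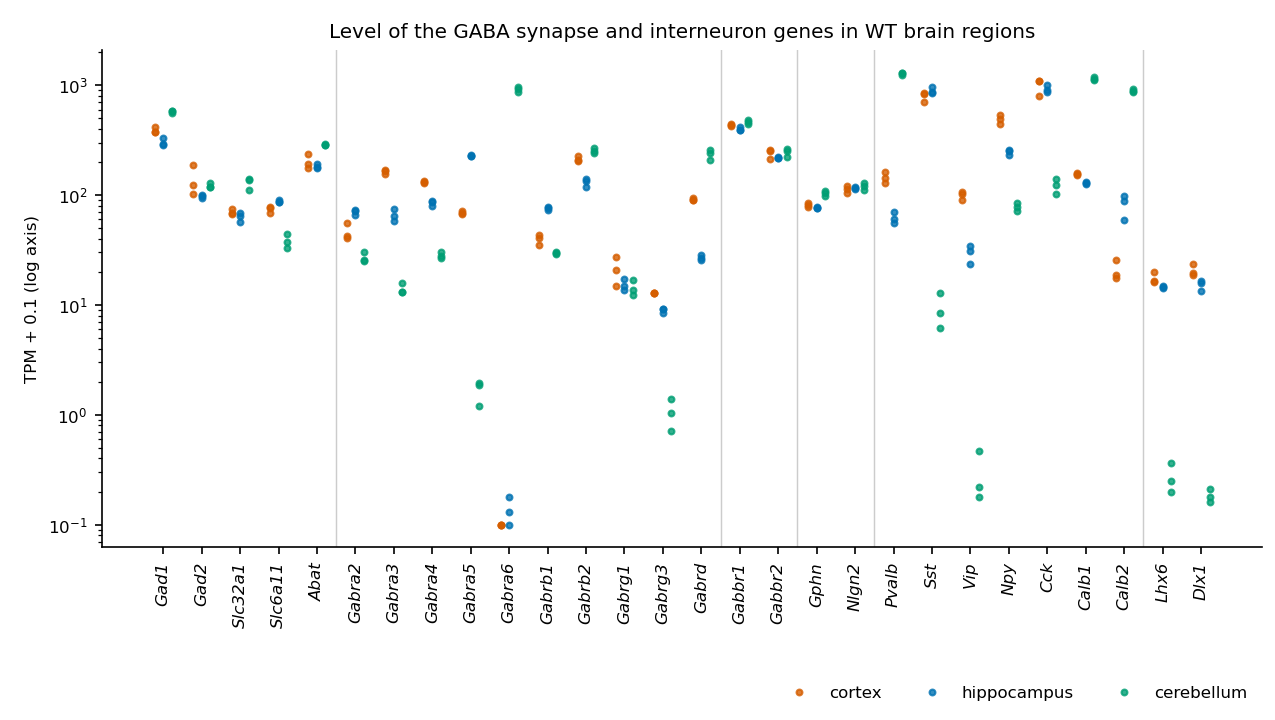
TPM + 0.1 (log axis) of each gene in the 3 WT libraries of each region, 1 point a library, grouped by role from left to right. Gabra6 sat near 914 in cerebellum and at or near 0 in cortex and hippocampus, Vip, Lhx6 and Dlx1 were below 1 in cerebellum, and the points of Gabbr1, Gabbr2 and Nlgn2 from the 3 regions lay close together.

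Among the genes of synthesis and transport, Gad1, the decarboxylase that makes most of the GABA of cell bodies, had the highest level in every region. Its TPM was 558, 577 and 584 in WT cerebellum, 371, 372 and 416 in cortex and 329, 291 and 288 in hippocampus, without overlap between regions. On the log2 scale cortex exceeded hippocampus by 0.35 ± 0.064 (SE; edgeR adjusted p = 0.00113). Gad2, the decarboxylase of nerve terminals, varied most among cortex libraries, at 101, 124 and 189 TPM in WT 1 to 3 and 215, 145 and 133 in KO 1 to 3. The highest Gad2 values were in WT 3 and KO 1, which also held the highest striatal marker sums. Among the cortex libraries of each genotype Gad1 too was highest there, at 416 TPM in WT 3 and 434 in KO 1. The part of those cells in the Gad1 and Gad2 levels was not tested. For Gad2, WT cortex was higher than WT hippocampus (100, 96.9 and 94.3 TPM) by 0.51 ± 0.16 in log2 (edgeR adjusted p = 0.0272). That call did not hold in DESeq2 or, in edgeR, in 2 of the 9 fits that left out 1 library.

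The vesicular transporter Slc32a1 was highest in cerebellum, at 136, 139 and 110 TPM, against 67.3 to 73.7 in cortex and 57.1 to 67.8 in hippocampus. Cortex was lower than cerebellum by a log2 difference of -0.77 ± 0.099 (edgeR adjusted p = 2.92e-05) and hippocampus by -0.92 ± 0.099 (adjusted p = 6.68e-06, edgeR). Slc6a11, the GABA transporter found mainly on astrocytes, had the opposite order. It read 85.7 to 89.4 TPM in hippocampus, 68.4 to 77.4 in cortex and 33.2 to 43.8 in cerebellum, with log2 differences from cerebellum of 1.31 ± 0.083 for hippocampus (edgeR adjusted p = 6.74e-08) and 1.07 ± 0.083 for cortex (edgeR adjusted p = 4.06e-07). Abat, the GABA transaminase, was highest in cerebellum at 284 to 294 TPM and overlapped between cortex (175 to 234) and hippocampus (175 to 193).

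Each region had its own leading GABA-A subunits. In WT cortex the order by mean TPM was Gabrb2 (212), Gabra3 (163), Gabra4 (131), Gabrd (91.2), Gabra5 (68.9), Gabra2 (46.2), Gabrb1 (39.5), Gabrg1 (20.8), Gabrg3 (12.8) and Gabra6 (0), and of these neighbours only Gabra2 and Gabrb1 overlapped between libraries. In hippocampus Gabra5, the alpha subunit of extrasynaptic receptors on pyramidal cells, came first at a mean of 228 TPM, ahead of Gabrb2 at 130, and Gabrb1, Gabra2 and Gabra3 overlapped in turn. In cerebellum Gabra6, the alpha subunit of granule cells, led at 914, followed by Gabrb2 (253) and Gabrd (234), which overlapped with each other. Gabrd encodes the delta subunit of receptors that carry tonic inhibition and that pair with alpha 6 in granule cells and alpha 4 in the forebrain.

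Gabra6 marked the cerebellum most sharply. Its TPM was 913, 869 and 960 in WT cerebellum, 0 in every WT cortex library and 0.08, 0 and 0.03 in WT hippocampus. No WT cortex count was found among 80598411, so the cerebellar level was at least 20768-fold higher when a floor of 3 counts over the group was used. The 3 counts of the hippocampus put the cerebellar level at 25193-fold, with a 95% counting interval from 8621 to 122163 (counting error only). Gabra5 ran the other way, at 229, 230 and 224 TPM in hippocampus, 71.0, 68.8 and 66.9 in cortex and 1.86, 1.10 and 1.78 in cerebellum. Its log2 difference was -1.72 ± 0.079 for cortex against hippocampus (edgeR adjusted p = 4.04e-08), 5.56 ± 0.11 for cortex against cerebellum (7.05e-12, edgeR adjusted p) and 7.29 ± 0.12 for hippocampus against cerebellum (edgeR adjusted p = 1.1e-12). Gabrd was 3.42-fold higher in cortex (93.6, 90.8 and 89.3 TPM) than in hippocampus (28.3, 26.4 and 25.3), a log2 difference of 1.78 ± 0.089 (edgeR adjusted p = 7.99e-08), and higher still in cerebellum (240.5, 255 and 206 TPM).

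Several of these subunit genes are neighbours in the genome and still had different regional levels. Gabrg1, Gabra2, Gabra4 and Gabrb1 lie in a row on chromosome 5 (chr5:70751047-72149037, GRCm38, GENCODE M21). Of these, Gabra4 was highest in cortex (131 TPM in mean, against 84.3 in hippocampus and 28.1 in cerebellum), while Gabra2 and Gabrb1 were highest in hippocampus (70.6 and 75.6). Gabra6 and Gabrb2 are 98.7 kb apart on chromosome 11, yet Gabrb2 was present in all regions, at 203 to 225 TPM in cortex, 117 to 140 in hippocampus and 241 to 269 in cerebellum. Gabrg3 and Gabra5 are 20.5 kb apart on chromosome 7 and both were low in cerebellum, but Gabrg3 was highest in cortex (12.7 to 12.8 TPM) and Gabra5 in hippocampus. Gabra4 and Gabrb1 overlap by 196 bases on opposite strands. Of the 28 genes, 6 share exonic bases with an annotated gene of the other strand, namely Dlx1, Gabra4, Gabra5, Gabrb1, Gphn and Slc32a1, and Lhx6 shares some with one on its own strand. The kit keeps strand, but the sources used here do not say whether the counting did, so these counts could hold reads of the partner gene.

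The GABA-B receptor genes did not differ between WT regions by the test. Gabbr1 had mean TPM of 433, 402 and 459 in cortex, hippocampus and cerebellum, and Gabbr2 had 240, 218 and 247. The largest of their 6 log2 differences was 0.14 ± 0.087, for Gabbr2 in cortex against hippocampus (edgeR adjusted p = 0.212). Nlgn2, the neuroligin of inhibitory synapses, was likewise level at means of 113, 116 and 121 TPM. Gphn, the scaffold gephyrin that anchors glycine and GABA-A receptors, was higher in cerebellum (103, 98.4 and 109 TPM) than in cortex (77.1, 80.2 and 85.4) and hippocampus (76.0, 77.5 and 76.8), without overlap. The log2 difference was -0.24 ± 0.051 for cortex against cerebellum (edgeR adjusted p = 0.00126) and -0.32 ± 0.05 for hippocampus against cerebellum (edgeR adjusted p = 0.000168).

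Over the 3 regions together, Gphn was also the gene of the list with the most skipped exon events in the authors' deposited splicing tables, made with junction reads per region. In hippocampus alone Gabbr1 had more. Most exons listed for these genes were near full inclusion: of the events with a mean of at least 10 junction reads in both sets of libraries, 17 of 21 in cortex, 20 of 23 in hippocampus and 25 of 30 in cerebellum had a median inclusion of at least 95%. At the other end were exons that were nearly always skipped, a 163-base exon of Cck (median inclusion 0.4% in cortex, 0.4% in hippocampus and 0.45% in cerebellum) and a 42-base exon of Gphn (0.65% in cortex and 2.35% in cerebellum, in an event not kept in hippocampus). The events with a median between 5% and 95% were all of 2 exons of Gphn, both with a length that is a multiple of 3. They are shown here because they were the partly included exons among the events with that many reads, in lower case with no letter singled out, as GENCODE M21 transcripts give them on the plus strand of GRCm38.
Gphn exon of 108 bases, chr12:78493950-78494057: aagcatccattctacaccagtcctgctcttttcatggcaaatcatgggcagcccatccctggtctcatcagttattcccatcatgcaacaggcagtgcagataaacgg
Gphn exon of 57 bases, chr12:78522898-78522954: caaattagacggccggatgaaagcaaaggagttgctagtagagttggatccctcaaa
The 108-base exon had a median inclusion of 9.1% in cortex, 13.35% in hippocampus and 15.05% in cerebellum over 6 libraries each. The 57-base exon, in its event with the larger number of reads, had 16.1%, 17.5% and 9.35%. These medians rest on 204 to 358 junction reads per region, and inclusion in single libraries ran from 3.2% to 22.7% for the first exon in cortex and from 8.2% to 31.3% for the second. A further kept event of the 57-base exon, with the 42-base exon as its downstream exon, had a median inclusion of 83.3% in cerebellum over 71 junction reads. The files name the 2 sets of libraries in each splicing table only as sample 1 and sample 2, so no direction by genotype is given. In the authors' deposited table no event of the 28 genes had a false discovery rate (FDR) under 0.05 with an inclusion difference of at least 0.1, against 0.406%, 0.0827% and 0.0669% of all events kept in cortex, hippocampus and cerebellum. The lowest deposited FDR was 0.253, for the 108-base exon in cortex, with an inclusion difference of 0.089.

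The interneuron peptides and calcium-binding proteins split into a forebrain and a cerebellar group. Sst, somatostatin, had 855, 834 and 700 TPM in WT cortex, 954, 850 and 871 in hippocampus and 6.0, 8.27 and 12.9 in cerebellum. The forebrain libraries overlapped with each other and lay far above the cerebellar ones, with log2 differences from cerebellum of 6.50 ± 0.18 in cortex (edgeR adjusted p = 7.45e-11) and 6.69 ± 0.18 in hippocampus (edgeR adjusted p = 5.43e-11). Vip, the peptide of disinhibitory interneurons, had 102, 106 and 90.7 TPM in cortex, 34.5, 30.8 and 23.5 in hippocampus and 0.08, 0.12 and 0.37 in cerebellum. Cortex exceeded hippocampus by 1.76 ± 0.14 in log2 (edgeR adjusted p = 2.47e-06). Its cerebellar level rested on 10 counts over 3 libraries, which put cortex 498-fold higher, with a 95% counting interval of 271 to 1039. Cck, cholecystokinin, made by a class of basket cells and by many pyramidal cells, had 1086, 1092 and 793 TPM in WT cortex, 1013, 866 and 894 in hippocampus and 125, 139 and 103 in cerebellum. Npy, neuropeptide Y, had the order cortex (440 to 539 TPM), hippocampus (230 to 258) and cerebellum (71.97 to 84.84), without overlap.

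The promoters of the 3 peptide genes Sst, Vip and Cck are shown because these genes carried the largest forebrain excess (Sst, Vip) and the largest genotype difference (Cck) of the peptides. RefSeq windows of GRCm38.p6, from 250 bases before to 50 bases after the start, were found for 24 of the 28 genes (31 windows). They were searched on both strands for TGACGTCA, the cyclic AMP response element, and for the shorter forms TGACG and CGTCA, which overlap inside it. Capitals mark each match.
Sst promoter, chr16:23890795-23891094, minus strand: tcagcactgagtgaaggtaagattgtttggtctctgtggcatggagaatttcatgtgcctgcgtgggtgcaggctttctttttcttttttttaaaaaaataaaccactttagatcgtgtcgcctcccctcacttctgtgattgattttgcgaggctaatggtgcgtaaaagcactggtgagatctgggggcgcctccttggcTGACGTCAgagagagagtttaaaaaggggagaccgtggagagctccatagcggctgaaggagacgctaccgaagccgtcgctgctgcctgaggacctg
Vip promoter, chr10:5638968-5639267, plus strand: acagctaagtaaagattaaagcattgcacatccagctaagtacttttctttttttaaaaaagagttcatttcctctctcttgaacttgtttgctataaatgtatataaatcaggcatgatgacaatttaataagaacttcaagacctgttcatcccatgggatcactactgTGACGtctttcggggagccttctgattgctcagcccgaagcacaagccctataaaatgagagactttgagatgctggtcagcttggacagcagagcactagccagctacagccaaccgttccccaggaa
Cck promoter, chr9:121495645-121495944, minus strand: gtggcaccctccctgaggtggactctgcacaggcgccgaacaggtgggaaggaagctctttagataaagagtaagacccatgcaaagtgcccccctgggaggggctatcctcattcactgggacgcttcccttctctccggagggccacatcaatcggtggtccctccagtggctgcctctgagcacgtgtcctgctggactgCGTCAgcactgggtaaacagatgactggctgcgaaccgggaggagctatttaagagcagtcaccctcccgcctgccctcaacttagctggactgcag
The full element was in 1 of the 31 windows, that of Sst, and in 1.79% of all 32851 promoter windows. A short form was present in 6 of the 31 (1 each of Sst, Vip, Cck, Gad2, Gabrb2 and Nlgn2), near the 20.8% of all windows. In Vip the short form began 79 bases and in Cck 47 bases before the start. These matches describe the letters in the windows and no binding was measured.

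The calcium-binding proteins were highest in cerebellum, where Purkinje cells hold Pvalb and Calb1 and granule cells hold Calb2. Pvalb, parvalbumin, which in the forebrain marks fast-spiking interneurons, had 1282, 1291 and 1239 TPM in WT cerebellum, 142, 162 and 128 in cortex and 69.9, 55.2 and 60.9 in hippocampus. Cortex exceeded hippocampus by 1.20 ± 0.1 in log2 (edgeR adjusted p = 5.01e-06). Calb1, calbindin, read 1125 to 1176 TPM in cerebellum, 152 to 159 in cortex and 127 to 132 in hippocampus. Calb2, calretinin, had 931, 887.5 and 868 TPM in cerebellum, 88.7, 59.2 and 98.0 in hippocampus and 17.7, 18.6 and 25.7 in cortex. Among genes of the list with a mean of at least 50 counts it had the largest hippocampal excess over cortex, with a log2 difference of -2.01 ± 0.18 for cortex against hippocampus (edgeR adjusted p = 7.27e-06). The 2 transcription factors of interneurons born in the ventral forebrain were close to absent from cerebellum in the WT libraries. Lhx6 had 16.06 to 19.96 TPM in cortex, 14.2 to 14.8 in hippocampus and 0.10 to 0.26 in cerebellum. Dlx1 had 18.7 to 23.5, 13.32 to 16.47 and 0.06 to 0.11, its cerebellar level resting on 8 counts, which put cortex 255-fold higher with a 95% counting interval of 130 to 591.

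The KO libraries kept this regional layout. Every gene called between WT regions had the same sign in the KO libraries (17, 23 and 23 genes), and 22, 27 and 25 genes were called there, against 52.5%, 72.3% and 71.2% of all genes. The order of the 3 regions by mean TPM was the same in KO for 26 of the 28 genes, and differed for Gabbr2 and Cck. For Cck the WT order put cortex level with hippocampus, at a log2 difference of 0.08 ± 0.14 (edgeR adjusted p = 0.675). In KO, cortex was below hippocampus by -1.08 on the log2 scale (edgeR adjusted p = 2.05e-05), with 596, 422 and 452 TPM in cortex and 1014, 1124 and 963 in hippocampus.

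Within a single region no gene of the list passed the test between KO and WT. In cortex 0 of 27 tested genes were called (edgeR quasi-likelihood test, adjusted p under 0.05), against 0.0203% of all 14802 genes, and 6 had an unadjusted p under 0.05, against 21% of all genes. In hippocampus 0 of 27 were called, against 0.209%, and 6 had an unadjusted p under 0.05, against 12.5%. In cerebellum 0 of 25 were called, against 0.226%, and 3 had an unadjusted p under 0.05, against 8.72%. DESeq2 called 5, 1 and 0 genes of the list in cortex, hippocampus and cerebellum, against 8.56%, 2.21% and 0.743% of the genes to which it gave an adjusted p. The median log2 difference of the list was -0.02, 0.09 and 0.06, against -0.0016, 0.00024 and 0.0043 over all genes. Its median absolute value was 0.11, 0.11 and 0.06, against 0.13, 0.08 and 0.07. Of the 5 genes of GABA synthesis, transport and breakdown, none had an unadjusted p under 0.05 in any region, against 21%, 12.5% and 8.72% of all genes. So few genes cannot set 0 apart from those shares. The 10 GABA-A subunits had median log2 differences of 0.03, 0.13 and 0.06 over those tested. In cortex and hippocampus they lay on both sides of 0, such as Gabrd below and Gabra2 above, and a shift of the group was not tested.

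**Figure D2:**
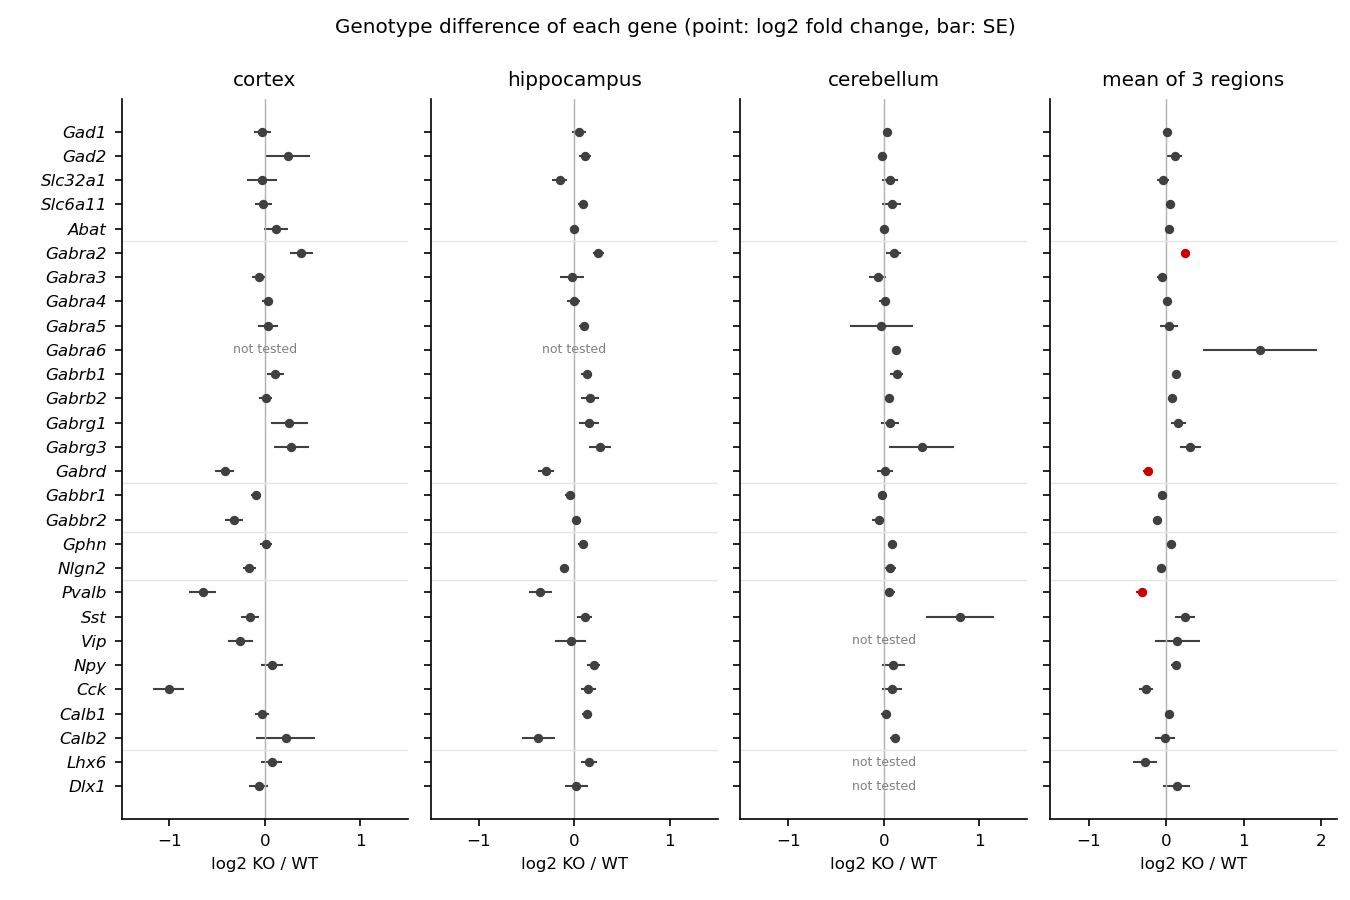
Log2 ratio of KO to WT for each gene (point) with its standard error (bar), in each region and averaged over regions, from edgeR. Red points had an adjusted p under 0.05, which only Gabra2, Gabrd and Pvalb reached, in the average; Gabra6, with the widest bar in the average, had almost no counts in the cortex and hippocampus libraries.

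Cck had the largest difference of the list in cortex. Its CPM (counts scaled to the effective library size) were 183, 180 and 127 in WT and 99.1, 69.4 and 75.0 in KO cortex, so that every KO library was below every WT library. The log2 difference was -1.01 ± 0.16, a KO level 0.497 times that of WT, with an edgeR adjusted p of 0.0668. Hippocampus showed no such deficit, at 173, 143 and 154 CPM in WT and 168, 190 and 162 in KO (log2 0.15 ± 0.082, edgeR adjusted p = 0.515). Cerebellum overlapped as well, at 20.2, 22.6 and 16.3 in WT and 22.2, 19.9 and 20.5 in KO. The test of the difference between regions gave -1.16 ± 0.2 for cortex against hippocampus (edgeR adjusted p = 0.189) and -1.09 ± 0.21 for cortex against cerebellum (edgeR adjusted p = 0.0891), neither of which passed. No gene of the list passed in any of the 3 region-by-region tests, where 0%, 0% and 0.00645% of all genes did, and 2, 7 and 2 had an unadjusted p under 0.05, against 10.1%, 15.2% and 5.31%. DESeq2 called Cck in both tests that involve cortex, and Pvalb in cortex against cerebellum, where it called 0.612% (cortex against hippocampus) and 2.74% (cortex against cerebellum) of the genes to which it gave an adjusted p.

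Every KO library had less Pvalb than every WT library in both forebrain regions, although neither region passed the test alone. In cortex it had 35.7, 40.1 and 31.0 CPM in WT and 26.6, 18.2 and 23.4 in KO, (log2 -0.65 ± 0.14, edgeR adjusted p = 0.0774). In hippocampus it had 17.8, 13.8 and 15.6 in WT and 13.5, 12.9 and 10.6 in KO, (log2 -0.35 ± 0.12, edgeR adjusted p = 0.318). In cerebellum, where Pvalb marks other cells, WT had 312, 315 and 294 and KO 345, 312 and 303 (log2 0.06 ± 0.055). Averaged over the 3 regions Pvalb fell by 0.32 ± 0.072 in log2, to 0.802 of WT, with an edgeR adjusted p of 0.0205.

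Gabrd, the delta subunit, had 59.7, 57.2 and 56.0 CPM in WT and 48.05, 36.3 and 44.8 in KO cortex, with no overlap (log2 -0.42 ± 0.099, edgeR adjusted p = 0.0833). Its hippocampal values were 18.3, 16.7 and 16.3 in WT and 15.2, 13.5 and 13.2 in KO, also apart (log2 -0.29 ± 0.082, edgeR adjusted p = 0.247). Cerebellum, the region of its highest level, overlapped fully, at 148, 158 and 124 against 158, 133 and 142 (log2 0.01 ± 0.084). The average over regions fell by 0.24 ± 0.059 (edgeR adjusted p = 0.0293).

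Gabra2, the alpha subunit common at axon initial segments, went the other way. It had 62.8, 60.3 and 55.9 CPM in WT and 73.8, 70.7 and 68.3 in KO hippocampus, every KO library above every WT library (log2 0.25 ± 0.057, edgeR adjusted p = 0.179). In cortex the groups overlapped at WT 3 and KO 1, with 35.7, 34.0 and 45.8 in WT and 44.5, 55.2 and 50.8 in KO (log2 0.38 ± 0.12, edgeR adjusted p = 0.134). Cerebellum had 20.1, 21.1 and 23.8 in WT and 23.1, 22.3 and 24.5 in KO (log2 0.10 ± 0.077). The average over regions rose by 0.24 ± 0.057 in log2, or 1.18-fold, with an edgeR adjusted p of 0.0239.

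**Figure D3:**
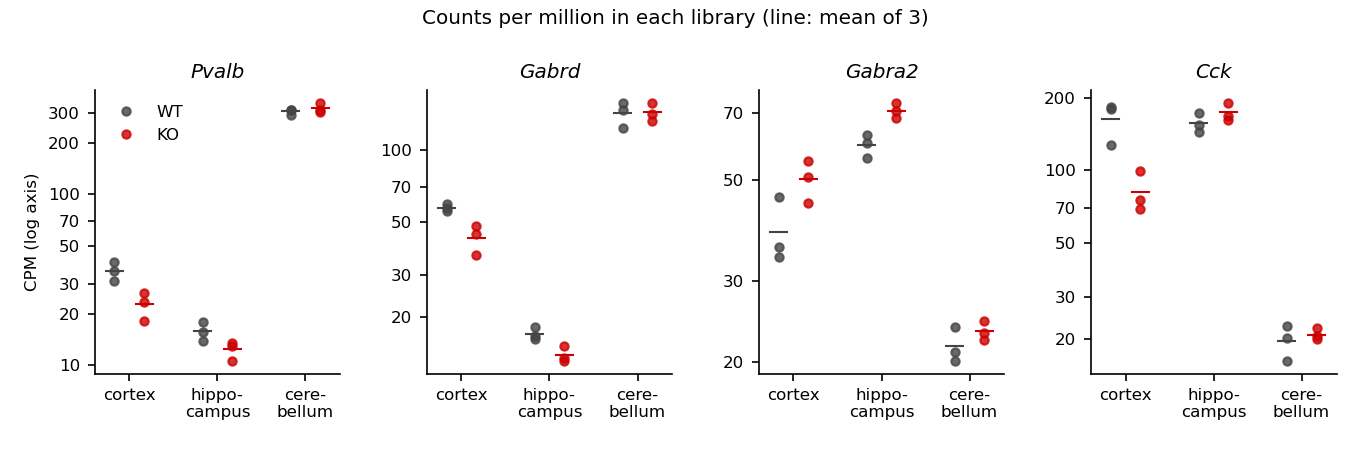
CPM (log axes, with a separate scale for each gene) of Pvalb, Gabrd, Gabra2 and Cck in each library of WT (grey) and KO (red), with a line at the mean of 3. KO libraries of Pvalb and Gabrd lay below WT in cortex and hippocampus and overlapped with WT in cerebellum, and those of Cck lay below WT in cortex and overlapped with it in the other regions.

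Over the average of the 3 regions, then, 3 of the 28 genes were called, against 5.85% of all 15504 genes tested. Of these 1 was higher (Gabra2; 2.79% of all genes) and 2 lower (Pvalb and Gabrd; 3.06%). None of the 3 passed when hippocampus and cerebellum were averaged without cortex (0.661% of all genes did), where the log2 differences were 0.17 for Gabra2, -0.14 for Gabrd and -0.15 for Pvalb (edgeR adjusted p = 0.13, 0.369 and 0.329). Of the 18 fits that left out 1 library, Pvalb passed in 18, Gabra2 in 14 and Gabrd in 10. Without hippocampus WT 1 and KO 2, the libraries of lowest choroid plexus sum, Gabra2 alone passed (2.21% of all genes did), at an edgeR adjusted p of 0.0463, with Gabrd at 0.0887 and Pvalb at 0.0534. The main fit of the average took its 18 libraries as independent. Its p-values may be too small if 1 animal gave more than 1 region, which the labels do not say.

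Other genes of the list stood apart between genotypes in 1 region without passing the adjusted test. Genes with an unadjusted p under 0.05 and no overlap between groups numbered 3 in cortex, all lower in KO (Cck, Pvalb, Gabrd), against 17.7% of all genes in either direction (8.92% higher and 8.74% lower). They numbered 6 in hippocampus against 11.2%, with 4 higher (5.54% of all genes) and 2 lower (5.69%). In cerebellum there were 2, both higher, against 7% (3.2% higher and 3.8% lower). In hippocampus, beside Gabra2, Gabrd and Pvalb, these were Gabrb1 (49.5, 48.1 and 46.0 CPM in WT, 51.7, 55.6 and 49.8 in KO), Npy (25.8, 27.9 and 28.6 in WT, 32.1, 33.3 and 29.5 in KO) and Calb1 (135, 135 and 131 in WT, 150, 152 and 138 in KO). Their log2 differences were 0.13 ± 0.055, 0.20 ± 0.07 and 0.13 ± 0.047, with edgeR adjusted p of 0.395, 0.311 and 0.328. In cerebellum these were Gabra6, with 774, 742 and 794 CPM in WT and 841, 849 and 836 in KO (log2 0.13 ± 0.044, edgeR adjusted p = 0.389), and Calb2, with 414, 397 and 377 in WT and 427, 441 and 420 in KO (log2 0.12 ± 0.048, edgeR adjusted p = 0.516). Gabbr2 in cortex, with 383, 366 and 308 CPM in WT and 261, 270 and 314 in KO, had overlapping groups (log2 -0.32 ± 0.095, edgeR adjusted p = 0.117).

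The calls in cortex depended on the fit and on which libraries entered it. The authors' deposited table lists 5 of the 28 genes below an adjusted p of 0.05 in cortex, against 12.7% of all genes with a value there, 1 of them higher in KO (Gabra2, log2 0.37) and 4 lower (Cck -1.02, Pvalb -0.66, Gabrd -0.43 and Gabbr2 -0.33), and none in hippocampus or cerebellum (1.32% and 0.313% of all genes). Without cortex WT 3 and KO 1, the 2 libraries of highest striatal marker sum, 6 of the list passed in edgeR (Cck, Gabbr2, Gabra2, Gabrd, Pvalb and Sst), against 7.49% of all genes. The log2 difference was then -1.33 for Cck (edgeR adjusted p = 3.96e-05), -0.87 for Pvalb (0.011, edgeR adjusted p), -0.53 for Gabrd (0.0243, edgeR adjusted p) and 0.60 for Gabra2 (0.0102, edgeR adjusted p). The differences were thus larger without those libraries. The remaining 4 cortex libraries still differed in the same markers, with striatal sums of 353 and 597 in WT and 866 and 833 in KO, and 4 of the 8 cortex markers and 3 of the 6 excitatory neuron markers lay lower in KO with unadjusted p under 0.05 in the fit of all 6 libraries, of which none passed the adjusted test. The part of cell makeup in the cortex values of Cck, Pvalb, Gabrd and Gabra2 was not tested.

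**Figure D4:**
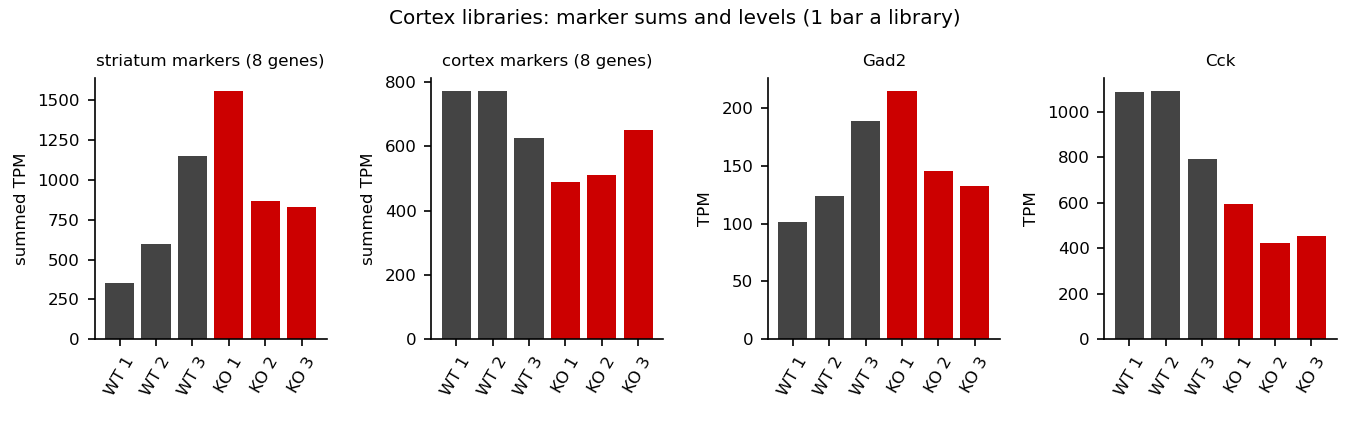
Summed TPM of 8 striatum and 8 cortex markers, and TPM of Gad2 and Cck, in each cortex library (1 bar a library, WT grey, KO red). WT 3 and KO 1 had the highest striatal sums and the highest Gad2, while Cck was lower in all 3 KO libraries (422 to 596) than in any WT library (793 to 1092).

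Of 59 further genes of the GABA pathway (other receptor subunits, transporters, receptor-associated proteins and interneuron genes), 55 were in the table. None passed between genotypes in a single region in edgeR, of 54, 55 and 46 tested, and 15, 6 and 5 had an unadjusted p under 0.05 in cortex, hippocampus and cerebellum, against 21%, 12.5% and 8.72% of all genes. In the average over regions 4 of 55 were called, 3 higher and 1 lower, against 5.85% of all genes. Cnr1, the cannabinoid receptor found on terminals of Cck interneurons, rose by 0.21 ± 0.041 in log2 (edgeR adjusted p = 0.00847), with 195, 220 and 240.4 CPM in WT and 306, 289 and 301 in KO cortex. Its values overlapped in hippocampus (314, 288 and 287 in WT, 341, 358 and 294 in KO) and in cerebellum (631, 655 and 669 in WT, 680.01, 664 and 664 in KO). Trak2, a kinesin adaptor that binds GABA-A receptors, rose by 0.12 ± 0.034 (edgeR adjusted p = 0.0431). Kcnc1, the potassium channel of fast-spiking neurons, fell by 0.13 ± 0.033 (edgeR adjusted p = 0.0299), with 233, 226 and 193 CPM in WT and 160, 156 and 165 in KO cortex and overlapping values in hippocampus and cerebellum. The part of cell makeup, such as the striatal content of the cortex libraries, in the values of Cnr1, Trak2 and Kcnc1 was not tested. Between WT regions 31, 48 and 50 of the 55 were called, in the order cortex against hippocampus, cortex against cerebellum and hippocampus against cerebellum, where 43.4%, 67.9% and 68% of all genes were.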

How the data were processed

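Per the submitters' processing notes, brain reads were trimmed with Trimmomatic 0.39, aligned to GRCm38/mm10 with tools that include STAR 2.6.1, and counted and tested with RSEM 1.3.1 and DESeq2 1.16.1 among the tools named; the role and order of each is not given in the sources used here. The deposited brain table holds whole-number counts, TPM, and the authors' log2 fold changes and adjusted p-values. The deposited skipped exon tables hold junction read counts, inclusion levels, a p-value-based FDR and a signed inclusion difference, used as a score that the authors give.

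The 28 genes and all lists were chosen with earlier results of these data known. Genotype was tested per region (6 libraries) and as an average over regions (18 libraries), and regions were tested in the 9 WT libraries, with edgeR 4.0.16 in R 4.3.3 (filterByExpr, TMM, quasi-likelihood F test, Benjamini-Hochberg over all genes, threshold 0.05). The errors are SE of the log2 fold change. No 2 libraries were identical. Levels are compared across genes and regions in TPM and between genotypes in CPM of effective library sizes. Genes were named when called between genotypes, or when their unadjusted p was under 0.05 without overlap. Between regions the 2 largest differences per role with a mean of at least 50 counts were named, and others were added for description. Alternatives were DESeq2 1.42.0, RLE factors, no filter, replicate blocks, 1 fit of 18 libraries and leaving out libraries; 3 added after seeing the data leave out libraries with unusual marker sums or average 2 regions. The code was tested on simulated data. Positions are from GENCODE M21 (GRCm38) and promoters from RefSeq (GRCm38.p6). One called gene of the wider pathway list is not reported here.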

Additional observations from a re-analysis of the deposited data

How the results depend on the processing

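In cortex the count of called genes of the list rose from 0 to 5 in 1 fit of all 18 brain libraries (8.24% of all genes called), to 5 with DESeq2 (8.56%) and to 6 without both libraries of highest striatal sum (7.49%). Leaving out 1 library gave 0 to 5, the 5 without WT 3 (Cck, Gabbr2, Gabra2, Pvalb and Sst; 7.36% of all genes). In hippocampus DESeq2 gave 1 (Gabra2; 2.21% of all genes). The average over regions gave 3, with 1 to 5 when 1 library was left out: 5 without cortex WT 3 or cerebellum WT 3 (8.96% and 11.3% of all genes), and 1 (Pvalb) without cerebellum WT 1, WT 2 or KO 3 (2.42%, 2.79% and 2.67%). It gave 1 without both hippocampus libraries of lowest choroid plexus sum (2.21%) and 0 from hippocampus and cerebellum alone (0.661%). The difference of the genotype effect gave 1 (Cck) for cortex against hippocampus with DESeq2 (0.612% of all genes) and 1 without both libraries of highest striatal sum (0.238%), with 0 to 1 when 1 library was left out (1 without cortex WT 3 or cortex KO 1; 1.15% and 0.00643%). For cortex against cerebellum it gave 2 with DESeq2 (2.74%) and 3 (Cck, Gabra2 and Pvalb) without both libraries (1.92%), with 0 to 2 when 1 was left out (2 without cortex WT 3; 2.98%). Leaving out 1 of 9 WT libraries gave 14 to 18 calls for cortex against hippocampus (33% to 44.4% of all genes) and 23 to 24 for each comparison with cerebellum (63% to 68.1% for cortex, 61.6% to 69% for hippocampus). A 2-fold minimum left 6 calls for cortex against hippocampus (9.98% of all genes), where the main count was 17. Over the 25 alternatives of the average, adjusted p ran from 0.000775 to 0.13 for Gabra2, from 0.00372 to 0.369 for Gabrd and from 0.000603 to 0.329 for Pvalb. The sign turned only for Gabrd in cerebellum, from 0.01 to -0.089 without WT 3 and to -0.056 without KO 1 (leaving out 1 library gave -0.089 to 0.086). RLE factors and no filter changed no count by over 1.5 times. With the replicate number as a block, 0 genes were called in each region (0.00676%, 0.00674% and 0.267% of all genes), 4 in the average (within genotype; 6.29%) and 18, 23 and 23 between WT regions (44.4%, 68.5% and 68.6%). The labels do not say whether the numbers pair WT and KO libraries, and correlations within groups of 3 libraries cannot decide it. The correlation of same-numbered libraries ran from -0.69 to 0.62 and passed 0.1 in 1 of 9 pairs. Nor was every pair of regions of one number above 0.1: the correlation ran from -0.022 to 0.45 in WT (5 of 9 above 0.1) and from -0.30 to 0.36 in KO (3 of 9). No paired analysis was possible for the skipped exons because those tables list the 3 libraries of each set without replicate numbers. Low counts limit Gabra6 outside and Vip, Lhx6 and Dlx1 inside the cerebellum.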

Other observations

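Outside the brain the deposited tables of liver, testis and N2a cells, a mouse neuroblastoma line, list 7, 10 and 10 of the 28 genes, and these levels entered no comparison. Abat, the GABA transaminase, was the highest of them in liver, at 116 to 170 TPM over 6 libraries. That was below its 175 to 234 TPM in WT cortex and 175 to 193 in WT hippocampus, with liver and brain normalized separately. Gphn, which besides its synaptic role makes the molybdenum cofactor, had 28.6 to 44.7 TPM in liver, 9.43 to 11.7 in testis and 11.97 to 37.44 in the 5 N2a libraries. Gabbr1 had 6.82 to 9.01 TPM in testis, 9.64 to 32.0 in N2a cells and 0.54 to 0.91 in liver, where its partner Gabbr2 had 3.70 to 7.69. Gad1 and Gad2 were listed only in testis, at 0.14 to 0.40 and 0.22 to 0.55 TPM. N2a cells had 4.97 to 12.9 TPM of Npy, 1.91 to 4.23 of Lhx6 and 1.25 to 5.46 of Dlx1.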
